A study of Mus musculus with 49 samples.

Results

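The genes described here are the cytochrome P450 genes of families 1 to 4. They were taken from the gene list by symbol alone, as every gene whose symbol is Cyp, a digit from 1 to 4, a letter for the subfamily and a number, with pseudogenes left out. The rule gave 75 of 46078 listed genes, in 21 subfamilies. It left out 22 further symbols of these families, such as Cyp4a12a and Cyp3a41a, whose names end in a letter, and the pseudogenes. No measured value entered the rule. Of the 75 genes, 4 had no count in any library, 9 had 1 to 9 counts in all and 51 had 100 or more.

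The study asked what becomes of adult mouse hepatocytes in culture and whether the dedifferentiated cells can form hepatocytes or intestinal epithelium. RNA from 49 libraries in 16 conditions was measured by CEL-seq2, which counts the 3′ ends of transcripts with unique molecular identifiers (UMIs). All cells were labelled C57BL/6J and WT, and replicates are separate libraries. Fresh hepatocytes (FH, 3 libraries) came from livers of 10-week-old mice and were separated from non-parenchymal cells by centrifugation. Marker RNA of such cells was still measured in FH. The mice were male by the methods text. Hepatocytes that the labels do not tie to the FH preparations were plated as a monolayer with EGF. They were collected after 3 hours and 1, 2, 4, 7 and 14 days (3 libraries each). Others were kept for 7 days with verteporfin, which blocks the interaction of Yap with TEAD factors, at 0.3 µM or with its solvent DMSO (2 libraries each). Serially passaged monolayers were named dediHeps (5). From them came dediHep aggregates grown in ultra-low attachment wells (3), spherical organoids in Matrigel (dediHep-SOs, 3) and budding organoids made from dediHeps transduced with Cdx2, an intestinal transcription factor (dediHep-BOs, 3). CLiPs (3) were hepatocytes turned into progenitor-like cells by small molecules. Fetal intestinal progenitor cells of E13.5 embryos grown as spherical organoids (FIPC-SOs, 3) and budding organoids from adult small intestine (ISC-BOs, 4) served as intestinal references. The aggregates and dediHep-SOs were made from cultures that were also measured as dediHeps, and each dediHep-BO carries the forced Cdx2 and a different medium from the dediHep-SOs, so these effects cannot be told apart.

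P450 enzymes are heme proteins of the endoplasmic reticulum that insert an oxygen atom into fat-soluble compounds, using electrons from the reductase Por. Families 1 to 3 handle drugs, toxins, steroids and bile acids, and family 4 mainly hydroxylates fatty acids and eicosanoids. Adult hepatocytes are the main site of most of them, under the control of liver factors such as Hnf4a and Cebpa and of receptors such as Nr1i3 (CAR), Nr1i2 (PXR), Ppara and Ahr. Some members are made mainly near the central vein, some differ between male and female liver, and some belong to the small intestine.

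The Cyp2c genes held the largest share of the family's UMIs and include members with opposite patterns, so the 250 bases before the annotated RefSeq start (GRCm38.p6, plus strand) are shown for 4 of them. Cyp2c65 and Cyp2c66 were highest in budding organoids, Cyp2c29 was high in hepatocytes and aggregates, and Cyp2c50 was high in FH and at 3 hours but at or near 0 in aggregates and budding organoids. Capitals mark CAAAGTC, letters of an Hnf4a motif.
Cyp2c65, chr19:39060756-39061005: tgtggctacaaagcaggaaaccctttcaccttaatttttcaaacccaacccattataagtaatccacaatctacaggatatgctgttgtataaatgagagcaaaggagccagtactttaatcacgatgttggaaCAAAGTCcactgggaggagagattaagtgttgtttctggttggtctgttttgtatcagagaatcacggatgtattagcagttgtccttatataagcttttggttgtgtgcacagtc
Cyp2c66, chr19:39113648-39113897: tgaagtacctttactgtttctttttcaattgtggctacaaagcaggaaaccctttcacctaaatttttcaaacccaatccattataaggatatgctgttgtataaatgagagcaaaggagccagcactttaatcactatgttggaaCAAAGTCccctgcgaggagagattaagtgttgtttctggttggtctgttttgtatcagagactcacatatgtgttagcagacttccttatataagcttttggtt
Cyp2c29, chr19:39286835-39287084: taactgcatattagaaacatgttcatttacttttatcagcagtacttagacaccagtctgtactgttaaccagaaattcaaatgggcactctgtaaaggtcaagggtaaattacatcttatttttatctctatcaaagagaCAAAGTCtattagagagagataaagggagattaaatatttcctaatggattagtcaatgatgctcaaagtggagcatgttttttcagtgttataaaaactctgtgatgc
Cyp2c50, chr19:40089429-40089678: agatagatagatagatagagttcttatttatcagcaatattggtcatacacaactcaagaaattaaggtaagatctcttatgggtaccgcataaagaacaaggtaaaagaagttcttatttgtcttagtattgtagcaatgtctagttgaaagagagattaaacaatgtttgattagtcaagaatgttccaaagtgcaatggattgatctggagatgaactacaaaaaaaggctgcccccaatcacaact

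Windows from 250 bases before to 50 bases after the start were matched for 62 of the 75 members. CAAAGTC (or GACTTTG on the other strand) was in a window of 17 of them, or 27.4%, against 5.0% of the 27025 genes with a window. Of the 13 matched Cyp2c members, 10 held it, among them Cyp2c65, Cyp2c66 and Cyp2c29, and Cyp2c50 did not. Cyp2c37, which was also high in FH and low in aggregates and budding organoids, held it at 184 and 116 bases before the start. TTGCNNAA, letters of a C/EBP motif, was in windows of 15 members, or 24.2%, against 12.2% of all genes. TTTATNG, letters of a Cdx2 motif, was in those of 9 members, or 14.5%, against 12.5%. GTTAAT, letters of an HNF1 motif, was in windows of 9 members, or 14.5%, against 8.24%. All 4 motifs were searched on both strands, and none is contained in another. Members of a cluster share ancestry, so these windows are not independent, and a match is no evidence that a factor binds there.

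Library totals ran from 861047 to 3872936 UMIs with a median of 1976760. Levels below are CPM (UMIs of a gene scaled to a library of 1000000) after TMM scaling over all 49 libraries, and 3 counts in a single library corresponded to 0.775 to 3.48 CPM. A 6-base UMI limits how many molecules of a gene can be told apart, and the highest count of a member in a library was 3924, near that limit, so the highest levels are compressed. The 10 hepatocyte markers summed to 30293 to 40725 CPM in FH, 1851 to 7969 in dediHeps, 15827 to 22307 in aggregates and 550 to 682 in dediHep-SOs, where Alb and Ahsg had no count. The 10 intestinal markers summed to 148 to 230 CPM in FH, without Cdx2, Vil1 or Muc2, to 37 to 1120 in dediHeps and to 3927 to 5317 in the budding organoids. Reads can be shared between paralogs. Among the last 500 bases of the transcripts, 35 members shared 10% or more of their 30-base stretches with another P450 gene. Of these, 7 shared over 50% (Cyp2c40, Cyp2c67, Cyp2c68, Cyp2c69, Cyp2a4, Cyp3a44 and Cyp4a32). The split of counts is most uncertain for these 7 and is uncertain for the others of the 35 too.

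**Figure D1:**
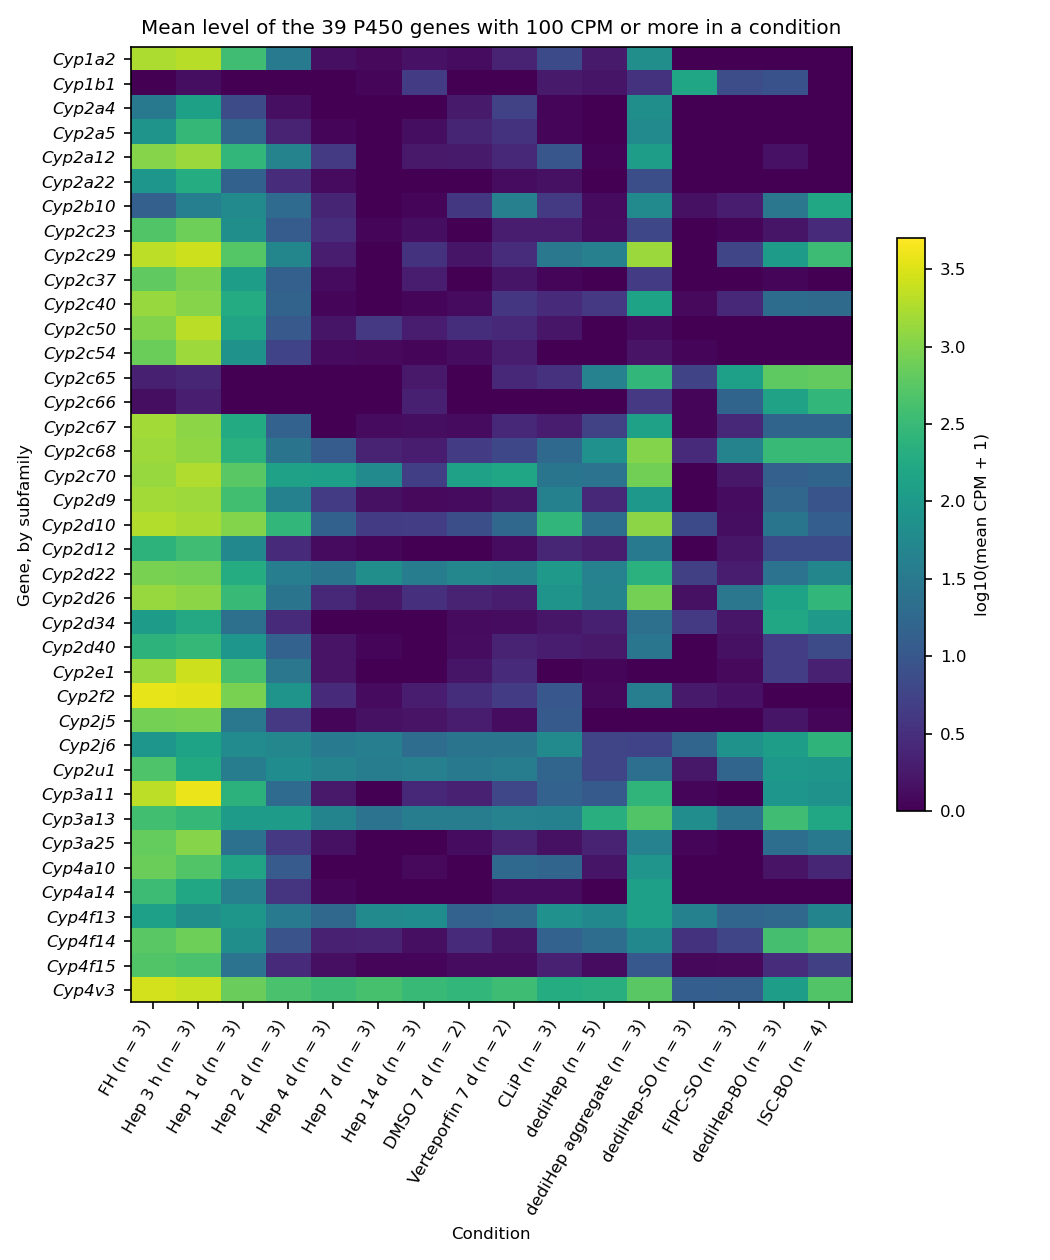
Mean level of the members that reached 100 CPM in at least 1 condition (rows, by subfamily) in the 16 conditions (columns), as log10 of the mean CPM + 1 in colour. Most rows are bright in FH and at 3 hours and dark from 4 days on, many brighten again in aggregates, and a smaller set is bright in dediHep-BOs and ISC-BOs.

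In FH the members held 2.23% to 2.55% of all UMIs. The Cyp2c subfamily took the largest mean share (0.737%), followed by Cyp2d (0.418%), the single Cyp2f gene (0.244%), Cyp3a (0.225%) and the single Cyp4v gene (0.185%). There were 31 members at 100 CPM or more in FH and 15 at 1000 CPM or more. Because each transcript gives a single 3′ tag, these levels need no correction for length.

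The highest member in FH was Cyp2f2, an enzyme of periportal hepatocytes and of lung, at 3645 ± 606 CPM (mean ± SD, n = 3). Cyp4v3, which hydroxylates fatty acids, followed at 2769 ± 476 and Cyp2c29 at 2157 ± 239, and the ranges of neighbours in this order overlapped. Cyp3a11, the main steroid and drug oxidase of mouse liver, stood at 2116 ± 1264 with a wide spread.

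Cyp2d10 (1871 ± 736), Cyp1a2 (1747 ± 580.5), which oxidises caffeine and aromatic amines, Cyp2c67 (1535 ± 219.7), Cyp2d9 (1529 ± 627), a male-biased steroid hydroxylase, and Cyp2c68 (1445 ± 217) came next. Cyp2c70, which makes muricholic acids from bile acids, was at 1365 ± 123, Cyp2e1, the ethanol-inducible enzyme, at 1357 ± 403, Cyp2c40 at 1349.7 ± 118, Cyp2d26 at 1325 ± 624, Cyp2a12 at 1075 ± 179 and Cyp2c50 at 1006 ± 519.6. Ranges overlapped between all neighbours among these 11 genes, so their order is not resolved.

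Between 100 and 1000 CPM in FH lay Cyp2d22 (912 ± 218), Cyp2j5 (853 ± 112), an arachidonic acid epoxygenase, the fatty acid hydroxylases Cyp4a10 (740.5 ± 202) and Cyp4a14 (348 ± 78.1), Cyp2c54 (728 ± 469), Cyp3a25 (658 ± 514) and Cyp2c37 (635 ± 308). Others in this range were Cyp4f14 (569 ± 84.6), Cyp4f15 (492 ± 71.1), Cyp2c23 (487 ± 144), Cyp2u1 (479 ± 59.9), Cyp3a13 (378 ± 95.7), Cyp2d40 (245 ± 81.4), Cyp2d12 (244 ± 36.0), Cyp4f13 (123 ± 57.6) and Cyp2d34 (111 ± 33.5). Some members differed widely between the FH libraries. FH library 1 held Cyp3a11 at 3575 CPM against 1355 and 1419 in the others, and Cyp3a25 at 1251 against 338 and 384. It was also the lowest for Cyp2d9 (811, 1806 and 1969.7) and Cyp2d26 (605, 1667 and 1703).

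The other 36 members stayed under 100 CPM in every condition. Most of the liver genes among them peaked at 3 hours, such as Cyp2d11 (99.3 CPM), Cyp3a59 (98.2), Cyp2c38 (76.8) and Cyp3a57 (14.9), or in FH, such as Cyp2c69 (70.3) and the vitamin D 25-hydroxylase Cyp2r1 (31.2). Cyp1a1, the Ahr target that is low without inducer, did not exceed 4.29 CPM, its mean in aggregates. Cyp2j7, Cyp2j8, Cyp2j11, Cyp2j13, Cyp2b19, Cyp2b23, Cyp2t4 and Cyp4x1 stayed under 1 CPM on average everywhere, and Cyp2j12, Cyp2w1, Cyp4a29 and Cyp4f39 had no count. At this depth such levels were not distinguishable from absence. Cyp2g1, Cyp2j9, Cyp2b13, Cyp2c39, Cyp3a16, Cyp3a44, Cyp4a32, Cyp4f17, Cyp4f18, Cyp4f37 and Cyp4f40 had their highest mean between 1.15 and 9.69 CPM.

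At 3 hours after plating the members still held 2.36% to 2.74% of UMIs, and 19 of the 39 members that reached 100 CPM anywhere had their highest mean there. None of the 46 members tested was called at this time (edgeR quasi-likelihood test, Benjamini-Hochberg adjusted p under 0.1 and a log2 fold change beyond 2 in size, the rule for every call below), where 6.91% of the 12443 genes tested were. At an unadjusted p under 0.05 in the edgeR test there were 11. The share of all genes at that threshold is not given, so this count is not read as a result. DESeq2 called 0.

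Cyp2e1 was at 1818, 1187 and 1068 CPM in the 3 FH libraries and 1978, 3296 and 2498 at 3 hours, with every 3-hour library above FH (log2 fold change 0.94, SE 0.44, adjusted p = 0.17). Cyp2c50 went from 1589, 592 and 837 to 1742, 2197 and 2359.6, again without overlap (log2 fold change 1.07, SE 0.46, adjusted p = 0.136). Neither passed the adjusted threshold. Cyp2b10, the classic target of CAR, was at 3.26, 26.1 and 7.98 in FH and 37.1, 43.7 and 36.4 at 3 hours (log2 fold change 1.70, SE 0.54, adjusted p = 0.0471), which passed the p threshold but not that on size.

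The opposite was measured for Cyp2u1, a fatty acid hydroxylase, at 412, 498 and 528 in FH and 201, 179.9 and 148 at 3 hours (log2 fold change -1.44, SE 0.34, adjusted p = 0.01). The coumarin hydroxylase Cyp2a5 and its close paralog Cyp2a4 varied widely in both groups. Cyp2a4 was at 66.3, 20.9 and 3.99 in FH and 27.5, 137 and 209.7 at 3 hours, and Cyp2a5 at 159.9, 66.5 and 19.9 and 85.0, 332 and 457. Cyp2a22, a further member of that subfamily, was at 106, 79.5 and 74.8 in FH and 197, 165 and 212 at 3 hours, with no overlap.

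Most of the loss came after 3 hours. At 1 day the share of UMIs was 0.673% to 0.834%, and 34 of the 46 members tested were called lower and 2 higher, where 10.9% and 6.57% of all genes were. The median log2 fold change of the members was -2.52 against -0.03 over all genes tested. Members pass the low-count filter mostly through FH, where they are high, so these counts describe them and are no test of the family. The same holds for the later comparisons with FH. In these bulk samples fewer hepatocytes and less RNA per hepatocyte cannot be told apart.

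Markers of other cell types differed between the times in culture as well. The summed Kupffer cell markers were 347, 394 and 126 CPM in the FH libraries and at most 7.12 at 3 hours. At 1 day they were 123, 95.6 and 3.03, and at 14 days 255, 311 and 4.58. At 1 and 14 days they were thus higher in libraries 1 and 2 than in library 3. The labels do not tie the 3-hour libraries to those of other times, so no course within a preparation is read. The liver endothelium markers summed to 299 to 364 in FH, 95.2 to 165 at 3 hours and 16.2 to 64.6 at 7 days. Those of stellate cells and fibroblasts summed to 109 to 211 in FH and 29.9 to 36.4 at 3 hours. At 14 days they were at 76.2, 197 and 42.4. The cholangiocyte markers summed to 20.9 to 128 CPM in FH, 643 to 678 at 3 hours and 1156 to 1435 at 14 days, and the hepatocyte markers to 30293 to 40725 in FH, 13632 to 17150.0 at 1 day and 3528 to 4246 at 14 days. Their part in the differences from FH was not tested.

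Cyp2j5 led the fall by p, from 861, 961 and 737 CPM in FH to 34.4, 33.6 and 18.7 at 1 day (log2 fold change -5.05, SE 0.45, adjusted p = 2.22e-08). Cyp2u1 went to 39.1, 38.1 and 26.8 (log2 fold change -3.95, SE 0.38, adjusted p = 6.72e-08) and Cyp3a25 to 30.1, 23.4 and 18.7 (log2 fold change -4.94, SE 0.49, adjusted p = 4.18e-07). All their 1-day libraries lay far below every FH library.

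The Cyp2c genes fell to a similar degree, with 10 of 11 called lower and a median log2 fold change of -3.00. Cyp2c40 dropped to 211, 204 and 152 CPM (log2 fold change -3.00, SE 0.31, adjusted p = 3.95e-07). The exception was Cyp2c70, at 389, 722 and 601 (log2 fold change -1.43, SE 0.30, adjusted p = 0.00072), which stayed within the size threshold. Of 8 Cyp2d members, 5 were called lower, and Cyp2d10 kept 871, 1105 and 1124, overlapping the FH range (log2 fold change -1.02, SE 0.44, adjusted p = 0.0799).

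Cyp2e1, at 469.6, 552 and 243 CPM, was also short of the size threshold (log2 fold change -1.86, SE 0.45, adjusted p = 0.00357). Of the 9 members listed as pericentral, 8 were called lower at 1 day and all 9 at 2 and at 14 days. The periportal Cyp2f2 was called lower too, at 696, 910.0 and 1058 (log2 fold change -2.21, SE 0.39, adjusted p = 0.000126), so calls were made among enzymes of both zones. Several 1-day calls sat near the size threshold. The log2 fold change of Cyp2a12 (243, 316 and 286 CPM, log2 fold change -2.10, SE 0.40, adjusted p = 0.000396) was -1.98 without FH library 3 and -1.99 without 1-day library 1. That of Cyp2d26 was -1.99 without FH library 2 or 3, that of Cyp2d9 -1.97 without FH library 3, that of Cyp2d12 -1.97 without 1-day library 3 and that of Cyp4v3 -1.996, just inside the threshold, without 1-day library 2. Cyp2c29 kept its size but not its p in a fit of all 49 libraries (adjusted p = 0.212). The calls of Cyp2a4 and Cyp2a5 rested on FH library 1, without which their log2 fold changes were -1.15 and -1.64. Cyp2a4 also lost its call without 1-day library 3 (adjusted p = 0.119).

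**Figure D2:**
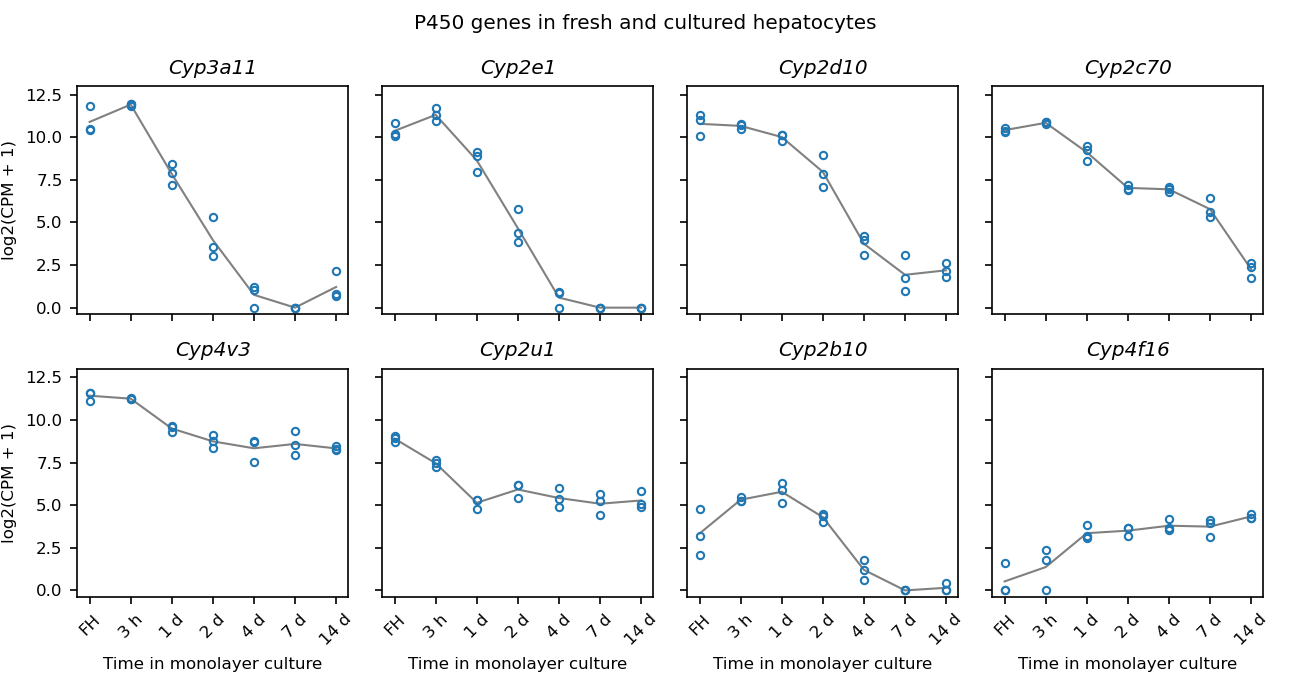
Level of 8 members, as log2 of CPM + 1 (vertical axis), in every library (circles) of FH and of the 6 times after plating, spaced evenly and joined at the group means of these values. Cyp3a11, Cyp2e1, Cyp2d10 and Cyp2c70 lose their level at different times, Cyp4v3 and Cyp2u1 keep a reduced level to 14 days, Cyp2b10 peaks at 1 day and Cyp4f16 rises.

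At 2 days 40 members were called lower and 1 higher, where 12.1% and 9.21% of all genes were. At 4 days the counts were 43 and 1 (12.4% and 11.4% of all genes), at 7 days 42 and 1 (12.8% and 13.2%) and at 14 days 44 and 1 (15.3% and 14.1%). The median log2 fold change, with members that had no count in a group set at the bound of 3 counts over that group, was -5.65 at 2 days, -8.25 at 4, -8.72 at 7 and -8.73 at 14 days, against 0.04, 0.10, 0.17 and 0.04 over all genes. Of the 46 members, 34 were first called lower at 1 day, 6 at 2 days, 3 at 4 days and 2 at 14 days. All of them were still called lower at 14 days except Cyp4f13, which was called at 2 and 4 days only.

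Most of the abundant liver enzymes ended near or at 0. Cyp2e1 read 53.1, 19.5 and 13.49 CPM at 2 days, 0.817, 0.872 and 0 at 4 days and 0 in all 6 libraries of 7 and 14 days. At 14 days it was at least 2347-fold lower, taking 3 counts over the group as the floor (adjusted p = 5.53e-10). Cyp3a11 read 38.6, 10.7 and 7.23 at 2 days, 0, 1.31 and 1.07 at 4 days and 0 in every library at 7 days, where it was at least 5559-fold lower (adjusted p = 4.9e-10). Cyp2c29 had no count at 7 days either, at least 5647-fold lower.

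By p, Cyp2c40 and Cyp2c68 led the calls at most of these times. Cyp2c68 read 28.9, 22.2 and 24.6 CPM at 2 days (log2 fold change -6.00, SE 0.39, adjusted p = 2.27e-10), 0.373, 1.44 and 1.98 at 7 days and 0.376, 1.21 and 1.14 at 14 days (log2 fold change -10.88, SE 0.54, adjusted p = 6.2e-13). Cyp2c40, whose counts are split with its near-identical neighbours, read 14.0, 14.9 and 13.01 at 2 days (log2 fold change -6.75, SE 0.38, adjusted p = 1.6e-10) and 0.376, 0 and 0 at 14 days, 6944-fold lower with a 95% counting interval of 1245 to 274337. Cyp2c67 had no count at 4 days, at least 3340.2-fold lower. Cyp2j5 read 3.40, 3.82 and 1.93 at 2 days (log2 fold change -8.24, SE 0.53, adjusted p = 2.14e-10), and Cyp2f2 119, 68.0 and 56.8 at 2 days and 3.68, 1.31 and 0.535 at 4 days (log2 fold change -10.98, SE 0.60, adjusted p = 1.23e-11).

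Most tested targets of the main receptors were called lower. So were 34 of all 46 members tested at 1 day and 44 at 14 days, so these counts do not set the targets apart. Of 9 tested targets of CAR and PXR, 7 were called lower at 1 day and all 9 at 14 days. All 3 tested Ppara targets of the Cyp4a subfamily were called lower at both times. So were all 5 tested male-biased genes, while of 10 female-biased genes 9 were called lower and Cyp2b10 higher at 1 day. Of the 3 Ahr targets Cyp1a2 alone could be tested, and it was called lower at 1 day (log2 fold change -2.42, SE 0.40, adjusted p = 6.66e-05). Of 4 flavin monooxygenases and epoxide hydrolases, which act beside P450 enzymes, 3 were called lower at 1 day and 3 at 14 days.

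Other members fell later or less. Cyp2c70 held 124, 118 and 148 CPM at 2 days, 110.3, 121 and 135 at 4 days, 38.1, 46.9 and 86.8 at 7 days and only 5.26, 4.25 and 2.29 at 14 days (log2 fold change -8.47, SE 0.43, adjusted p = 7.67e-13). The replicates at 2 and 4 days overlapped, so no fall was seen between those times. Cyp2d10 still read 491, 228 and 136 at 2 days before it dropped to 17.6, 7.41 and 14.4 at 4 days (log2 fold change -7.28, SE 0.58, adjusted p = 1.28e-09).

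Cyp4v3 kept the highest level of all members at the end, with 351, 309 and 303 CPM at 14 days (log2 fold change -3.24, SE 0.35, adjusted p = 7.91e-08). It had reached 545, 325 and 441 at 2 days, and the ranges of the later times overlapped that range. Cyp2u1, Cyp2d22, Cyp3a13 and Cyp2j6 also kept a reduced level, at 39.3 ± 14.5, 36.0 ± 10.4, 36.0 ± 18.1 and 20.0 ± 3.696 CPM at 14 days. Cyp4f13, which acts on eicosanoids, was at 85.9, 93.9 and 189 in FH, 41.2, 28.3 and 23.6 at 2 days (log2 fold change -2.15, SE 0.51, adjusted p = 0.0019) and 26.5, 10.0 and 13.4 at 4 days (log2 fold change -3.02, SE 0.53, adjusted p = 8.98e-05), called lower at both. Its 2-day call was lost without FH library 3 (-1.69) or without 2-day library 3 (-1.98). At 7 days it overlapped FH and was not called (log2 fold change -1.27, SE 0.49, adjusted p = 0.0432), nor was it at 14 days, at 69.5, 45.5 and 68.7 (log2 fold change -1.14, SE 0.50, adjusted p = 0.0632). At 14 days Cyp4v3 made up the larger part of the family's remaining UMIs: the share of the members was 0.0576% with it and 0.0255% without.

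Cyp4f16 was the sole member called higher from 1 day through 14 days. It read 0, 0 and 1.99 CPM in FH, 7.31, 13.2 and 8.08 at 1 day and 21.4, 18.2 and 18.3 at 14 days, with all culture libraries from 1 day on above FH. With 2 counts in FH, the 14-day level was 26.7-fold higher with a 95% counting interval of 7.21 to 223 (adjusted p = 6.46e-05). Cyp2b10 was called higher at 1 day alone, at 34.0, 78.8 and 59.1 CPM (log2 fold change 2.07, SE 0.53, adjusted p = 0.00489), and fell back to 2.45, 1.31 and 0.535 at 4 days (log2 fold change -3.11, SE 0.66, adjusted p = 0.000785). Its 1-day call rested on the size threshold, since the log2 fold change was 1.63 without FH library 1, 1.83 without FH library 3 and 1.78 without 1-day library 2.

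Of the 8 redox partners tested, 1 was called lower and 1 higher at 14 days, where 15.3% and 14.1% of all genes were, with a median log2 fold change of -1.66. Por, the electron donor, was at log2 fold change -1.64, SE 0.41, adjusted p = 0.00243. Of 9 genes of heme synthesis, 5 were called lower at 14 days, among them Alas1, the rate-limiting enzyme in liver (log2 fold change -4.10, SE 0.68, adjusted p = 3.16e-05). Alas2, the erythroid form, and Cpox were called lower too.

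Of 20 regulators tested, 10 were called lower at 14 days and none higher. Nr1i3 (log2 fold change -8.997, SE 0.82, adjusted p = 1.62e-08), Ppara (log2 fold change -4.97, SE 0.57, adjusted p = 2.26e-07), Cebpa (log2 fold change -4.75, SE 0.37, adjusted p = 5.67e-10), Nr5a2 (log2 fold change -4.22, SE 0.42, adjusted p = 2.33e-08) and Nr1i2 (log2 fold change -4.12, SE 0.51, adjusted p = 7.43e-07) were among them. Hnf4a did not pass the size threshold (log2 fold change -0.85, SE 0.31, adjusted p = 0.0275), nor did Ahr (log2 fold change -0.25, SE 0.31, adjusted p = 0.5261). Of 11 P450 genes of other families, 7 were called lower, such as the bile acid enzymes Cyp7a1 (log2 fold change -7.85, SE 1.19, adjusted p = 4.46e-05) and Cyp8b1 (log2 fold change -11.94, SE 0.63, adjusted p = 1.6e-12), and none was called higher.

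In the passaged dediHeps, 38 of 43 members tested were called lower than in FH and 2 higher, where 12.6% and 13.1% of all genes were. The median log2 fold change, with the 8 members without a count at their bound, was -7.995 against 0.08 over all genes. Cyp2f2 was at 0.198 CPM on average, 20894-fold lower with a 95% counting interval of 5782 to 172551 (adjusted p = 1.19e-07). Cyp2c50, Cyp2c37, Cyp2c54, Cyp2a4, Cyp2a5, Cyp2j5 and Cyp4a14 had no count in any of the 5 libraries, and Cyp2c50 was at least 3948-fold lower.

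Cyp2a12, at 0 in 4 libraries, was 12481-fold lower with a 95% counting interval of 2238 to 493148, and Cyp2e1, at 0 in 4 libraries, was 15707-fold lower with a 95% counting interval of 2817 to 620555.

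The highest members in dediHeps were Cyp4v3, at 44.9, 219.7, 29.9, 515 and 236 CPM (log2 fold change -3.97, SE 0.74, adjusted p = 0.00149), and Cyp3a13, at 81.6, 205, 219, 348 and 182. Cyp3a13 overlapped FH, and its log2 fold change stayed within the size threshold (log2 fold change -1.10, SE 0.39, adjusted p = 0.047). Cyp4f16 was called higher again, at 12.0, 6.10, 16.04, 14.2 and 15.4. So was the intestinal enzyme Cyp2c65, at 4.93, 13.7, 57.1, 1.63 and 139 against 3.26, 0 and 0 in FH, 39.8-fold higher with a 95% counting interval of 13.53 to 193 (adjusted p = 0.039). The groups overlapped, and the call was lost without FH library 2 (adjusted p = 0.128) or FH library 3 (0.127).

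The 5 dediHep cultures differed among themselves. Culture 5 held Cyp2c29 at 197 CPM, where the others read 0 to 3.09, and was also the highest for Cyp2c65 and for Cyp2c68 (1.64, 62.5, 71.3, 15.9 and 215). Culture 3 was the highest for Cyp2s1, an enzyme of extrahepatic epithelia (1.64, 1.53, 68.2, 5.29 and 6.27), and for Cyp4f14 (0.547, 5.59, 70.0, 16.3 and 6.27). The summed intestinal markers were 36.7, 361, 1120, 350.03 and 229.6 CPM in the same order, highest in culture 3. The summed hepatocyte markers were 1851, 6490.2, 3033, 7969 and 7626. Whether the makeup of a culture had a part in its P450 levels was not tested.

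In aggregates the share of UMIs was 0.684% to 1.05%, against 0.025% to 0.153% in the dediHep monolayers. Of 35 members tested between these groups, 25 were called, each of them higher, where 4.39% of all genes were called higher. Of all 75 members, 35 had every aggregate library above every dediHep library, 0 had every one below and 40 overlapped. The share over all genes is not given here, so these counts only describe the members. The median log2 fold change was 4.88 against -0.07 over all genes. Many members passed the low-count filter through aggregates, where they were higher. The calls and the median are thus no test of the family. All 8 Cyp2d members tested were called higher, 6 of 8 Cyp2c members and all 3 Cyp4a members. The aggregates share their source cultures with 3 of the dediHep libraries, and a fit that blocks the culture called 28 members in place of 25.

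By p, the clearest were Cyp4a31 (log2 fold change 7.26, SE 0.63, adjusted p = 0.000146), Cyp2a12 and Cyp2f2. Cyp2a12 went from a single count over the dediHeps to 49.5, 56.1 and 242 CPM in aggregates, 1387-fold higher with a 95% counting interval of 248 to 54870.4 (adjusted p = 0.00015). Cyp2d10 went from 0.547, 25.9, 8.02, 49.2 and 19.3 in dediHeps to 1196, 951 and 1283 in aggregates (log2 fold change 5.85, SE 0.78, adjusted p = 0.00133), with all 3 aggregates above all 5 monolayers. Cyp2d26 went from 1.64, 36.6, 75.0, 65.1 and 42.0 to 788, 622 and 1106 (log2 fold change 4.28, SE 0.71, adjusted p = 0.00431), also without overlap. Cyp2f2 reached 24.7, 16.1 and 70.8, 216-fold higher with a 95% counting interval of 59.0 to 1795.

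Cyp4a14 had no count in dediHeps and 311, 33.9 and 21.5 CPM in aggregates, at least 363-fold higher (adjusted p = 0.0071). Cyp2b10 reached 62.6, 12.6 and 91.3 (log2 fold change 7.19, SE 0.85, adjusted p = 0.000658), and its female-biased neighbour Cyp2b9 6.96, 9.99 and 44.1, at least 82.0-fold higher. Some calls rested on 1 library. Cyp3a11, at 622, 37.4 and 127, was called (log2 fold change 4.76, SE 1.13, adjusted p = 0.021) but had an adjusted p of 0.134 without aggregate 1. Cyp2c29 (2591, 784 and 834, log2 fold change 5.21, SE 1.61, adjusted p = 0.0531) lost its call without aggregate 1 (0.162) or aggregate 3 (0.109). Cyp3a25 lost its without aggregate 1 (0.113), and Cyp2d34 and Cyp2d12 lost theirs without aggregate 3 (0.119 and 0.126).

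Against FH, 28 of 45 members were called lower in aggregates and 3 higher, where 9.78% and 6.78% of all genes were. FH and dediHep libraries each enter several comparisons, so the results of these comparisons are not independent. Of the 31 members at 100 CPM or more in FH, 7 had a mean in aggregates at 50% or more of the FH mean, 10 at 10% to 50%, 9 at 1% to 10% and 5 under 1%. With counts corrected for shared UMIs the highest class still held 7 and the lowest 6. The median log2 fold change over the 45 was -3.26 against -0.04 over all genes.

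**Figure D3:**
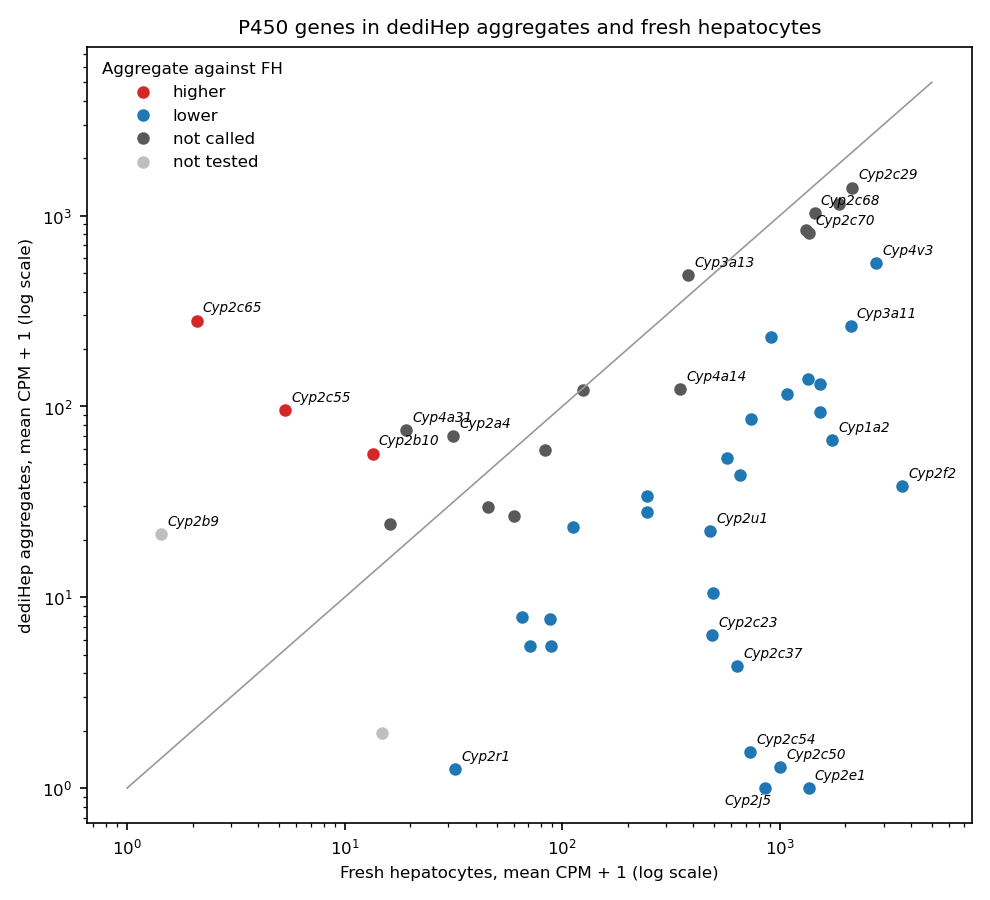
Mean level in dediHep aggregates (vertical axis) against that in FH (horizontal axis) for each member shown, both as CPM + 1 on log scales, with the line of equal level and colours for the calls. Cyp3a13, Cyp2c29, Cyp2c68 and Cyp2c70 lie near the line, Cyp2c65 and Cyp2c55 above it, and Cyp2e1, Cyp2j5, Cyp2c50, Cyp2c54 and Cyp2c37 far below it.

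The members nearest to FH came from several subfamilies. Cyp3a13 was at 485, 490.2 and 489 CPM in aggregates and 347, 485 and 301 in FH (log2 fold change 0.21, SE 0.33, adjusted p = 0.679). Cyp2c68 was at 1291, 1108 and 692 against 1678, 1249 and 1407 (log2 fold change -0.64, SE 0.35, adjusted p = 0.2), and Cyp2c29 at 2591, 784 and 834 against 1994, 2046 and 2432 (log2 fold change -0.75, SE 0.47, adjusted p = 0.258). The groups overlapped for each of these, and an adjusted p above the threshold does not show that the levels were equal.

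Cyp2c70, at 1098, 807 and 525 CPM, lay below FH in every library but within the size threshold (log2 fold change -0.90, SE 0.36, adjusted p = 0.0853). Cyp2d10 overlapped FH and was within it too (log2 fold change -0.85, SE 0.35, adjusted p = 0.0976). Cyp2d26 overlapped FH (log2 fold change -0.80, SE 0.41, adjusted p = 0.175), as did Cyp4f13 (log2 fold change -0.18, SE 0.39, adjusted p = 0.771).

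At the other end, Cyp2e1 and Cyp2j5 had no count in any aggregate. Cyp2e1 was at least 2510.0-fold lower than in FH and Cyp2j5 at least 1559-fold lower (adjusted p = 6.46e-06 and 5.45e-06). Cyp2c50 read 0, 0.869 and 0 CPM, 2839-fold lower with a 95% counting interval of 785 to 23456, and Cyp2c54 0.773, 0.869 and 0, 1348-fold lower with a 95% counting interval of 461 to 6544. Cyp2c37 read 3.87, 5.65 and 0.513 (log2 fold change -7.70, SE 0.74, adjusted p = 4.26e-05). Cyp2c37, Cyp2c50 and Cyp2c54 lie side by side on chromosome 19 with Cyp2c70, which stood at 59.4% of its FH level in aggregates, and with Cyp2c68 and Cyp2c29 on the same chromosome.

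Cyp1a2 was at 83.5, 23.5 and 90.3 (log2 fold change -4.88, SE 0.56, adjusted p = 0.000137), Cyp2f2 at 24.7, 16.1 and 70.8 (log2 fold change -6.78, SE 0.60, adjusted p = 2.45e-05) and Cyp2c23, an epoxygenase of kidney and liver, at 6.19, 8.26 and 1.54 (log2 fold change -6.63, SE 0.61, adjusted p = 3.18e-05). Of the 9 pericentral members, 7 were called lower than in FH and Cyp2c29 and Cyp2a5 were not. Cyp2a5 and Cyp2a4 came mostly from aggregate 3, with 3.09, 3.04 and 169 CPM for Cyp2a5 and 6.19, 2.17 and 199 for Cyp2a4. Cyp2d9, the male-biased hydroxylase, was also highest there, at 17.8, 31.3 and 230.3 (log2 fold change -4.20, SE 0.85, adjusted p = 0.00399).

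All 5 genes tested of the male-biased list were called lower in aggregates than in FH, counting Cyp4a12a (log2 fold change -2.69, SE 0.84, adjusted p = 0.0352), Cyp4a12b (log2 fold change -4.49, SE 1.00, adjusted p = 0.007) and Cyp7b1, which are not members, beside Cyp2d9 and Cyp2u1. Of 7 tested genes of the female-biased list, 4 were called lower and 1, Cyp2b10, higher. All 5 tested female-biased members were called higher than in dediHeps, and so were all 4 tested male-biased genes. Of all members tested, 28 of 45 were called lower than in FH and 25 of 35 higher than in dediHeps. These counts alone do not set the lists apart.

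Members above FH were Cyp2c65, Cyp2c55 and Cyp2b10. Cyp2c65 was at 698, 131 and 11.8 CPM, 199-fold higher with a 95% counting interval of 67.8 to 964 (adjusted p = 0.00437). Cyp2c55, an enzyme of colon and of induced liver, was at 239, 37.4 and 7.69 against 5.44, 2.61 and 4.99 in FH (log2 fold change 4.26, SE 1.13, adjusted p = 0.017). Aggregate 1 was the highest and aggregate 3 the lowest for both, so the difference from FH varied widely between cultures. The call of Cyp2b10 (log2 fold change 2.03, SE 0.79, adjusted p = 0.0796) was lost without any of FH 1, FH 3, aggregate 1 or aggregate 3 (adjusted p up to 0.226).

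Against FH, none of the 8 redox partners was called in aggregates, Por among them (log2 fold change -0.31, SE 0.39, adjusted p = 0.599), and 3 of 8 genes of heme synthesis were called lower, with Alas1 at log2 fold change -2.69, SE 0.63, adjusted p = 0.00889. Among 17 regulators, Ppara (log2 fold change 3.75, SE 0.55, adjusted p = 0.00222), Nr1i2 (log2 fold change 3.16, SE 0.72, adjusted p = 0.0187), Rxra (log2 fold change 2.53, SE 0.33, adjusted p = 0.00121) and Nr5a2 (log2 fold change 2.25, SE 0.83, adjusted p = 0.091) were called higher in aggregates than in dediHeps. Nr1i3 was called lower than in FH (log2 fold change -4.37, SE 0.55, adjusted p = 0.00024). So were Nr0b2 (log2 fold change -5.66, SE 0.79, adjusted p = 0.000414) and Tbx3 (log2 fold change -5.28, SE 0.79, adjusted p = 0.000656). Of all genes tested, 9.78% were called lower than in FH. Hnf4a was not called in either comparison (log2 fold change 0.09, SE 0.34, adjusted p = 0.872 against FH). Of 10 P450 genes of other families, 6 were lower than in FH and Cyp39a1, an oxysterol hydroxylase, was higher (log2 fold change 2.90, SE 0.43, adjusted p = 0.000653).

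Few members could be tested between CLiPs and dediHeps, and the number called varied with the filter and the fit. Without the low-count filter, 8 of 57 members were called higher in CLiPs and 4 lower. With DESeq2 2 of 57 were higher and 3 lower, and in 1 fit of all 49 libraries 12 of 53 were higher and 6 lower. The rest of this paragraph is on the main fit. Of 16 members tested, Cyp2j6 was called higher (44.1, 42.7 and 85.4 against 14.8, 6.10, 0.617, 0.407 and 2.89 CPM, log2 fold change 3.501, SE 0.87, adjusted p = 0.0686) and Cyp3a13 lower (26.1, 27.5 and 71.2 against 81.6, 205, 219, 348 and 182, log2 fold change -2.35, SE 0.53, adjusted p = 0.0495), where 1.65% and 1.39% of all genes were called. Both lost the call with the replicate number as a block (adjusted p = 0.181 and 0.109). Cyp2j6 lost it without dediHep 2, 3 or 5 or CLiP 1 or 3 (adjusted p = 0.109 to 0.191) and Cyp3a13 without dediHep 2 (0.105) or CLiP 1 (0.22). The median log2 fold change of these 16 members was -0.05 against -0.03 over all genes.

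CLiP library 3 stood apart. It held Cyp2d10 at 785 CPM against 12.8 and 8.50 in the others, Cyp2d26 at 242 against 1.02 and 1.79, and Cyp2d9 at 122 against 0.512 and 0.894. Its summed hepatocyte markers were 15958 CPM against 3998 and 4409.8. Against FH, 35 of 42 members were called lower in CLiPs and 1, Cyp4f16, higher, where 11.4% and 13.1% of all genes were. For this comparison the median of all genes was 0.18 with TMM and 0.05 with the scaling of DESeq2. By p, Cyp2c37, Cyp2e1 and Cyp4a14 led the calls. Cyp2e1 had no count in CLiPs, at least 3836-fold lower, Cyp2c37 was 5436-fold lower with a 95% counting interval of 974 to 214845 and Cyp4a14 1462-fold lower with a 95% counting interval of 404 to 12092. Cyp2d10 and Cyp2d26 were not called (log2 fold change -2.92, SE 1.46, adjusted p = 0.169, and log2 fold change -4.15, SE 1.70, adjusted p = 0.1).

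In monolayers kept for 7 days, 2 of 12 members tested were called with verteporfin, both higher than with DMSO, where 0.24% of all genes were called higher, or 25 of 10400. Cyp2b10 was at 45.6 and 35.5 CPM with verteporfin and 3.15 and 2.78 with DMSO (log2 fold change 3.74, SE 0.43, adjusted p = 0.01). Cyp4a10, a fatty acid hydroxylase and target of Ppara, was at 20.5 and 14.3 against 0 in both DMSO libraries, at least 19.6-fold higher (adjusted p = 0.0238). Both members were separated completely, with 2 libraries in each group.

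DESeq2 gave no adjusted p for Cyp4a10, and a fit of all 49 libraries called neither (adjusted p = 1). The abundant members were not called. Cyp4v3 was at 361 and 338 against 239 and 323 (log2 fold change 0.32, SE 0.23, adjusted p = 0.731) and Cyp2c70 at 141 and 156 against 125 and 138 (log2 fold change 0.17, SE 0.24, adjusted p = 0.876). Cyp3a13 (log2 fold change 0.27, SE 0.30, adjusted p = 0.8295) and Cyp2d22 (log2 fold change -0.21, SE 0.29, adjusted p = 0.874) were not called either, at 41.7 and 43.5 against 36.0 and 34.5 and 42.4 and 45.4 against 54.9 and 46.2 CPM. The summed hepatocyte markers were 9363 and 9902 CPM with verteporfin and 9927 and 10088 with DMSO.

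In dediHep-SOs the share of UMIs was 0.039% to 0.050%, and in FIPC-SOs 0.046% to 0.068%. Of 15 members tested against dediHeps, 5 were called lower and 1 higher, where 4.65% and 4.12% of all genes were, with a median of -1.73 against -0.05. Cyp2c70 had no count in dediHep-SOs, at least 63.6-fold lower. Cyp4v3 was at 11.3, 14.6 and 9.50 CPM (log2 fold change -4.10, SE 0.91, adjusted p = 0.0145), Cyp2d22 at 4.73, 2.51 and 4.98 (log2 fold change -3.30, SE 0.60, adjusted p = 0.00474) and Cyp2d26 at 0, 0 and 1.36, 120.1-fold lower with a 95% counting interval of 40.9 to 584. Cyp2c68 lost its call without dediHep-SO 1 or 2 (adjusted p = 0.191 and 0.199).

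Cyp1b1, an Ahr target that metabolises estrogens and is known mainly outside hepatocytes, was the member called higher. It was at 91.7, 141 and 210.4 CPM in dediHep-SOs, 0, 0.508, 2.16, 0.407 and 0 in dediHeps (log2 fold change 7.59, SE 0.69, adjusted p = 7.64e-05) and 6.57, 6.15 and 7.11 in FIPC-SOs (log2 fold change 4.46, SE 0.41, adjusted p = 0.00016). All dediHep-SO libraries were above every other library of the study. Fibroblasts also make Cyp1b1. The 10 stellate cell and fibroblast markers summed to 0.453 to 1.58 CPM in dediHep-SOs, and to 11.98, 5.42 and 484.9 in the 3 FIPC-SOs. The part of such cells in the Cyp1b1 level was not tested.

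Against FIPC-SOs, 7 of 14 members were called lower in dediHep-SOs and 2 higher, where 3.99% and 4.92% of all genes were. All 7 lower ones are on the intestinal P450 list, as are 12 of the 14 tested. Cyp2c65 was at 0.63, 1.00 and 12.7 CPM in dediHep-SOs and 67.6, 189 and 110.5 in FIPC-SOs (log2 fold change -4.71, SE 0.89, adjusted p = 0.00612), Cyp2j6 at 11.7, 13.55 and 20.4 and 54.9, 87.9 and 86.9 (log2 fold change -2.35, SE 0.36, adjusted p = 0.00205) and Cyp2u1 at 1.26, 0.502 and 0.453 and 15.1, 19.2 and 10.7 (log2 fold change -4.17, SE 0.55, adjusted p = 0.000944). Cyp2d26 was 69.6-fold lower with a 95% counting interval of 23.5 to 339.7. None of these groups overlapped. Cyp4b1, a lung and gut enzyme, was the other member called higher, at 16.1, 13.05 and 6.79 against 0.387, 0.362 and 1.62 (log2 fold change 3.79, SE 0.65, adjusted p = 0.00368).

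In dediHep-BOs the share of UMIs was 0.278% to 0.402%, near the 0.304% to 0.557% of ISC-BOs. Of 24 members tested against dediHep-SOs, 19 were called higher and 1 lower, where 5.6% and 5.68% of all genes were, with a median of 5.75 against -0.00. Many members had little or no count in dediHep-SOs and passed the low-count filter through dediHep-BOs, where they were high. The calls and the median thus describe the members and are no test of the family. Of 17 tested genes of the intestinal P450 list, 14 were called higher and 0 lower, and all 7 tested targets of CAR and PXR were called higher. So were 19 of all 24 members tested, so these counts do not set the lists apart.

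Cyp4f14, an eicosanoid hydroxylase of gut and liver, was at 2.21, 2.01 and 3.17 CPM in dediHep-SOs and 627, 255 and 317 in dediHep-BOs (log2 fold change 7.31, SE 0.48, adjusted p = 2.13e-05). Cyp2c66 went from a single count to 135, 114 and 154, 990.1-fold higher with a 95% counting interval of 177 to 39149 (adjusted p = 2.13e-05). Cyp2u1 went from 1.26, 0.502 and 0.453 to 115, 89.9 and 71.6 (log2 fold change 6.75, SE 0.47, adjusted p = 2.23e-05), and Cyp2c65 from 0.63, 1.00 and 12.7 to 601, 501 and 725 (log2 fold change 7.02, SE 0.81, adjusted p = 0.000264). In each case every dediHep-BO library lay far above every dediHep-SO library.

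Liver enzymes that the intestine also makes were among them. Cyp2c29 had no count in dediHep-SOs and 174, 80.0 and 81.5 CPM in dediHep-BOs, at least 267-fold higher. Cyp3a11 reached 139.7, 35.4 and 83.6, 617-fold higher with a 95% counting interval of 110.4 to 24429.6, and Cyp3a13 went from 62.1, 78.3 and 52.0 to 461, 334 and 307 (log2 fold change 2.52, SE 0.27, adjusted p = 0.00019). Cyp1b1 was the member called lower, at 7.01, 9.94 and 5.60 (log2 fold change -4.29, SE 0.43, adjusted p = 0.000119). Cyp2s1 stayed within its spread, at 147, 64.7 and 46.2 and 80.1, 66.6 and 71.6 (log2 fold change -0.25, SE 0.41, adjusted p = 0.657). Cyp2d10 lost its call when the replicate number was blocked (log2 fold change 1.81), without dediHep-SO 2 (adjusted p = 0.148), without dediHep-SO 3 (1.87) and without dediHep-BO 1 (0.96). Without dediHep-BO 3 the log2 fold change of Cyp2j6 was 1.86, short of the threshold, and without dediHep-BO 1 that of Cyp2d22 was 1.83.

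**Figure D4:**
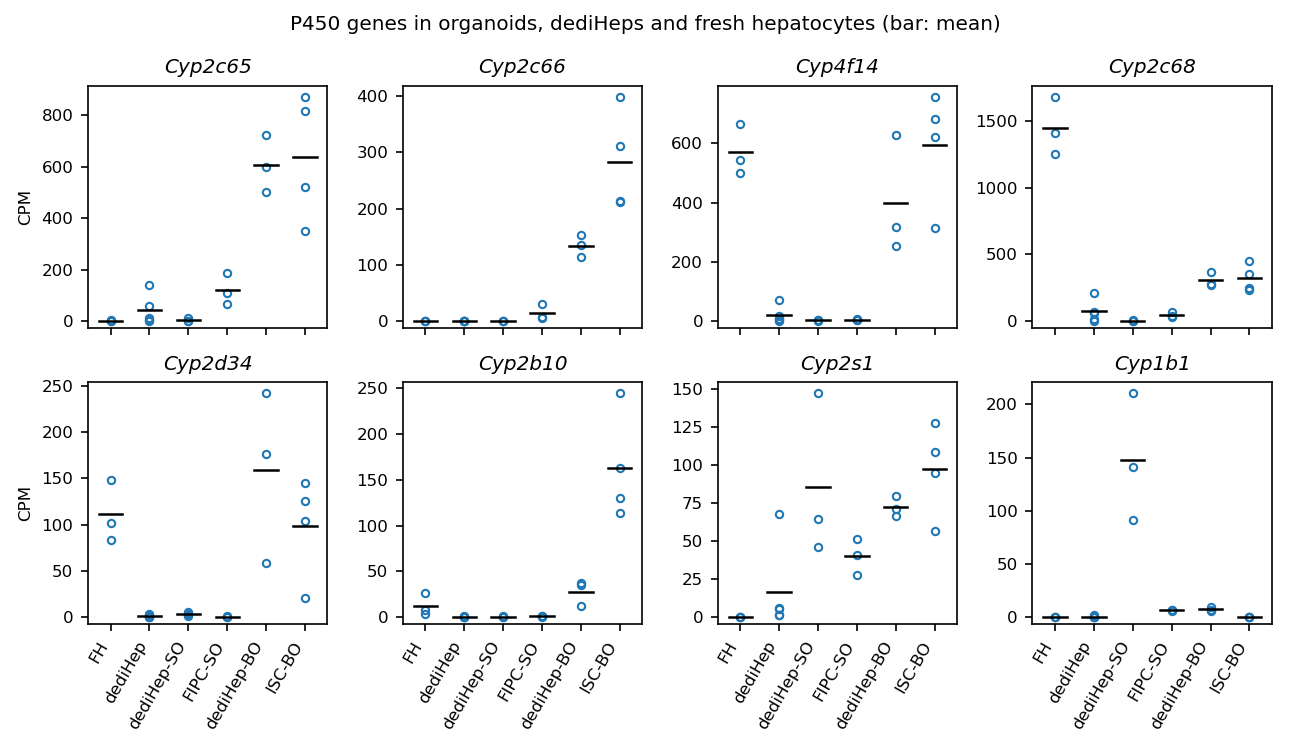
Level of 8 members in CPM (vertical axes, each from 0 to its own maximum) in every library (circles) of FH, dediHeps, the spherical and the budding organoids, with the group mean as a bar. Cyp2c65, Cyp2c66, Cyp4f14, Cyp2c68 and Cyp2d34 are low in dediHep-SOs and high in dediHep-BOs and ISC-BOs, Cyp2b10 is higher in ISC-BOs, Cyp2s1 is present in all organoids and Cyp1b1 is highest in dediHep-SOs.

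Between dediHep-BOs and ISC-BOs, 1 of 30 members was called higher and 3 lower, where 1.34% and 1.71% of all genes were, with a median of -0.35 against -0.00. Cyp2c65 was at 601, 501 and 725 CPM and 818, 349, 522 and 871 (log2 fold change -0.02, SE 0.28, adjusted p = 0.977), Cyp2c68 at 368, 272 and 276 and 349.7, 252, 234 and 448 (log2 fold change -0.02, SE 0.25, adjusted p = 0.977) and Cyp4f14 at 627, 255 and 317 and 682, 621, 315 and 755 (log2 fold change -0.52, SE 0.34, adjusted p = 0.377). The groups overlapped for all 3, with a standard error of the log2 fold change of 0.25 to 0.34.

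The members called lower in dediHep-BOs were Cyp4v3, at 127, 102 and 116 against 584, 567, 349.8 and 511 (log2 fold change -2.08, SE 0.23, adjusted p = 0.000514), Cyp2b10, at 37.0, 35.0 and 12.1 against 130.4, 244, 114 and 163 (log2 fold change -2.48, SE 0.43, adjusted p = 0.00742), and Cyp2c38 (log2 fold change -2.56, SE 0.64, adjusted p = 0.0413). The call of Cyp2c38 was lost without dediHep-BO 2 (adjusted p = 0.144) or ISC-BO 1 (0.103). Cyp1b1 was called higher, at 7.01, 9.94 and 5.60 against 0 in all 4 ISC-BO libraries (adjusted p = 0.00397). The fibroblast markers summed to 291.3, 290.02 and 4.31 CPM in the 3 dediHep-BOs and to 2.54 to 8.21 in ISC-BOs, and Cyp1b1 was at 5.60 CPM in dediHep-BO 3, where those markers were near their ISC-BO level. The part of such cells in the level was not tested. Cyp3a13, at 461, 334 and 307 against 156, 143, 128 and 201, was above ISC-BOs in every library but within the size threshold (log2 fold change 1.28, SE 0.23, adjusted p = 0.00903). Cyp2c66 (135, 114 and 154 against 311, 211, 213 and 398) was likewise below it (log2 fold change -1.03, SE 0.27, adjusted p = 0.0474).

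Against FH, 6 of 47 members were called higher in ISC-BOs and 35 lower, where 14.8% and 13.3% of all genes were, and a median of -5.60 against 0.08. The higher ones were Cyp2c65, Cyp2c66, Cyp2s1, Cyp4f16, Cyp2b10 and Cyp2c55. Cyp2s1 had no count in FH and 109, 128, 95.3 and 57.0 CPM in ISC-BOs, at least 87.3-fold higher (adjusted p = 1.15e-05), Cyp2c66 was 753-fold higher with a 95% counting interval of 135 to 29736 and Cyp2c65 559.7-fold higher with a 95% counting interval of 191 to 2715. Cyp2f2 had no count in ISC-BOs, at least 10402-fold lower, nor had Cyp1a2 or Cyp2a12. By p, the lower ones were led by Cyp2j5, 7284-fold lower with a 95% counting interval of 1306 to 287838, Cyp2e1 (log2 fold change -10.28, SE 0.48, adjusted p = 2.28e-08) and Cyp4a10 (log2 fold change -9.05, SE 0.44, adjusted p = 3.53e-08). Cyp4f14, at 682, 621, 315 and 755 CPM in ISC-BOs, was not called (log2 fold change -0.13, SE 0.32, adjusted p = 0.768), nor was Cyp2d34, at 126, 145, 21.3 and 103 (log2 fold change -0.35, SE 0.51, adjusted p = 0.605).

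Among regulators, Nr1i3 (log2 fold change 8.26, SE 0.77, adjusted p = 0.000242), Nr1i2 (log2 fold change 4.05, SE 0.53, adjusted p = 0.000537), Cebpa (log2 fold change 2.35, SE 0.32, adjusted p = 0.000623) and Nr5a2 (log2 fold change 2.13, SE 0.38, adjusted p = 0.00303) were called higher in dediHep-BOs than in dediHep-SOs, of 17 tested. Ahr was called lower (log2 fold change -2.73, SE 0.30, adjusted p = 0.000202). None of the 8 redox partners was called, and of 7 genes of heme synthesis Cpox alone was (log2 fold change 2.07, SE 0.35, adjusted p = 0.00232). None of 18 regulators was called between dediHep-BOs and ISC-BOs.

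**Figure D5:**
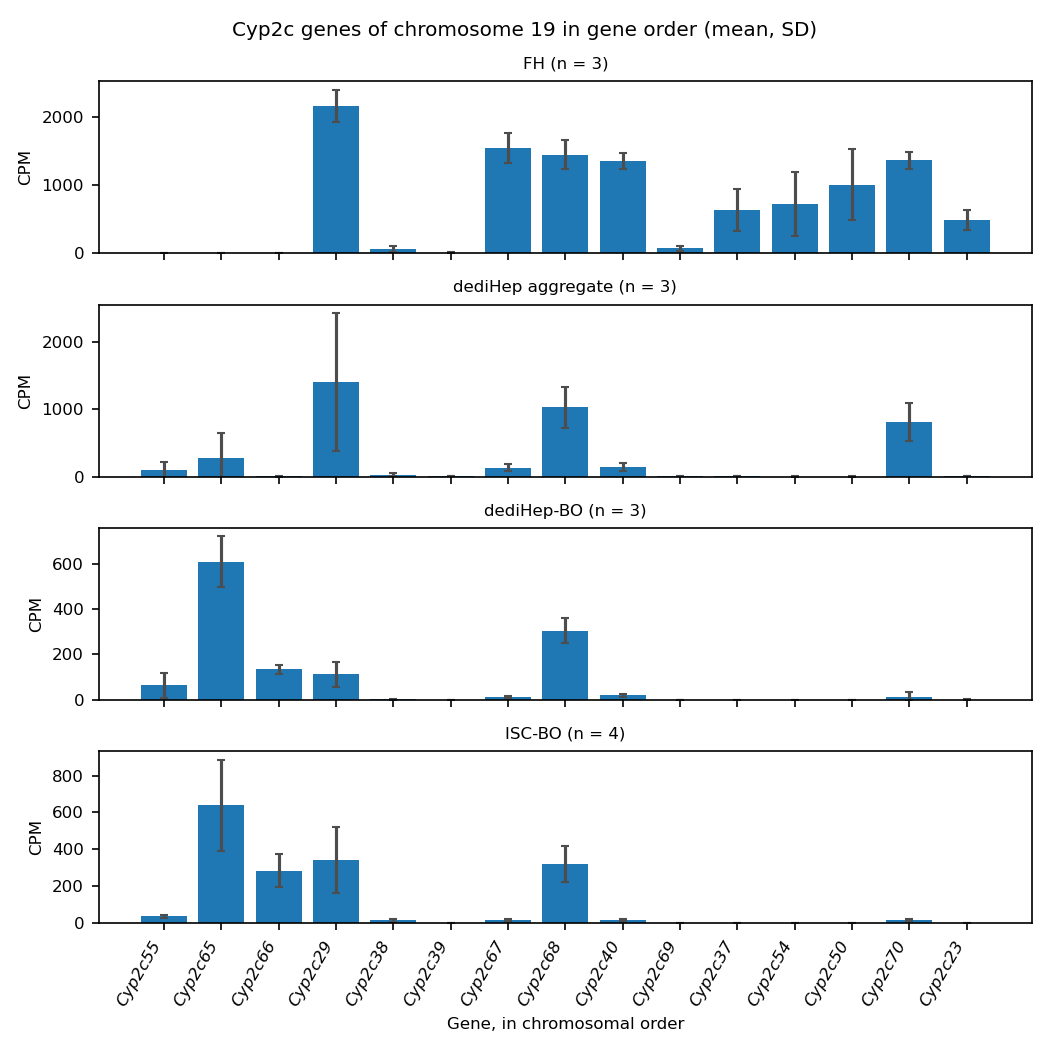
Mean level in CPM of the Cyp2c members (bars, with the SD as error bars), in their order along chromosome 19 and evenly spaced, in FH, dediHep aggregates, dediHep-BOs and ISC-BOs, each on its own axis. Cyp2c37, Cyp2c54 and Cyp2c50 are high in FH alone among these groups, and Cyp2c65 and Cyp2c66 in the budding organoids, with Cyp2c65 also in aggregates.

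The 15 Cyp2c members lie on chromosome 19 in the order Cyp2c55, Cyp2c65, Cyp2c66, Cyp2c29, Cyp2c38, Cyp2c39, Cyp2c67, Cyp2c68, Cyp2c40, Cyp2c69, Cyp2c37, Cyp2c54, Cyp2c50, Cyp2c70 and, farther off, Cyp2c23. The 3 at the low end, Cyp2c55, Cyp2c65 and Cyp2c66, were under 5 CPM on average in FH. They were at 37.0, 640.2 and 283 CPM in ISC-BOs. The next gene, Cyp2c29, was present in FH, aggregates and ISC-BOs, at 2157, 1403 and 343. Cyp2c37, Cyp2c54 and Cyp2c50 were at 635, 728 and 1006 in FH and had no count in ISC-BOs. These are descriptions of level along the cluster, with no test of position.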

How the data were processed

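CEL-seq2 libraries of 49 samples in 16 conditions were measured. The authors deposited a table of UMI counts per Ensembl gene, raw and not normalized, in which each count is a distinct 6-base UMI at a transcript's 3′ end. The submitters' processing notes name bcl2fastq 2.20, Bowtie2 2.3.1, HTSeq 0.6.0 and the build GRCm38, and the study's methods name the celseq2 pipeline. Because a transcript is tagged once, levels need no length correction, and because the number of 6-base UMIs is limited, the highest counts are compressed. Symbols came from GENCODE M21, which matched 45143 of the 46078 gene IDs, and every column carries the name of a sample.

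Samples were grouped by their labels. Tests on the counts used edgeR 4.0.16 under R 4.3.3, with its quasi-likelihood fit after TMM scaling and filterByExpr (minimum count 10, minimum total 15). The 7 times of culture shared a fit, and each other comparison used its own libraries. P-values were adjusted by Benjamini-Hochberg over all genes tested, and a call, following the study, needed an adjusted p under 0.1 and a log2 fold change beyond 2. A group without counts was set at 3 counts over the group, and ratios resting on 1 to 3 counts carry an exact 95% interval that covers counting error only. Where labels do not say that libraries came from separate animals or cultures, p-values measure only the spread between libraries. All members that reached 100 CPM in a condition are named, with the 3 called members of smallest p in each direction of a comparison. The fits were tested on simulated counts.

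The members and the lists (pericentral and periportal, male-biased and female-biased, CAR and PXR, Ppara and Ahr targets, intestinal P450, other P450 families, redox partners, heme synthesis, regulators, flavin monooxygenases and epoxide hydrolases, and cell type markers) were chosen with earlier results of these data known. Alternatives were the scaling of DESeq2 1.42.0, no low-count filter, DESeq2, counts corrected for shared UMIs, 1 fit of all 49 libraries, a replicate block and leaving out each library. Aggregates and dediHeps from the same culture deviated together (correlation of deviations 0.188 to 0.347 over the 3 pairs), as the labels' culture names pair them. Promoter windows came from RefSeq (GRCm38.p6).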

Additional observations from a re-analysis of the deposited data

Results flagged for a closer look

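In 41 pairs of a member and a group of 4 or 5 libraries, 5 had a library whose gap to the nearest other was large for the group's range. For normally distributed values chance flags about 1 in 20 such groups. CPM values of counts need not follow that distribution, so 5 of 41 is not read as an excess. In dediHeps, culture 5 held Cyp2c29 at 197 CPM with the next at 3.09, and Cyp3a11 at 40.5 with the next at 4.01. DediHep culture 3 held Cyp2s1 at 68.2 CPM with the next at 6.27, and Cyp4f14 at 70.0 with the next at 16.3. Among ISC-BOs, library 4 held Cyp3a25 at 57.4 CPM with the next at 23.6.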

How the results depend on the processing

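The numbers of members called stayed within 1.5 times of those above under most alternatives. Without a low-count filter they were 1 at 3 hours, 39 for aggregates against dediHeps, 12 for CLiPs against dediHeps, 15 for dediHep-SOs against dediHeps and 14 for dediHep-SOs against FIPC-SOs, as more members were tested. With DESeq2 they were 5 for CLiPs against dediHeps, 1 for verteporfin and 10 for dediHep-SOs against dediHeps. With counts corrected for shared UMIs 1 was called at 3 hours. In 1 fit of all 49 libraries they were 40 for aggregates against dediHeps, 18 for CLiPs against dediHeps, 15 for dediHep-SOs against dediHeps and 0 for verteporfin. The cause was not tested. Leaving out each library gave 0 to 2 at 3 hours, 0 to 4 for CLiPs against dediHeps, 5 to 9 for dediHep-SOs against dediHeps and 3 to 7 for dediHep-BOs against ISC-BOs. Of 425 calls, 33 were lost under some alternative and 0 reversed.

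With the replicate number as a block, the count for CLiPs against dediHeps was 0, and the other counts stayed within 1.5 times. Blocking the culture gave 28 for aggregates against dediHeps and 6 for dediHep-SOs against dediHeps, whose shared cultures did not deviate together (correlations -0.50 to 0.04). Verteporfin and DMSO pairs (0.387) kept 2 calls. For the other groups the labels give the number no meaning, and same-numbered libraries did not all deviate together. Sample names of the 3-hour libraries share just 1 numeric suffix with those of FH, so that block rests on the title's number. From 1 to 14 days library 3 had the lowest Kupffer cell markers at every time. Depth limits members under about 3 counts a library.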
